A study of Homo sapiens with 6 samples.

Results

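The integrated stress response genes examined here were 10 transcripts that belong to the program of the transcription factor ATF4: ATF4 itself, DDIT3, ATF3, TRIB3, CHAC1, ASNS, STC2, SESN2, PPP1R15A and VLDLR. They were picked by name from the 36517 genes of the count table, with earlier results of the same comparison known, so their levels are given as a description and without a test. The cells were MDA-MB-453, an established luminal breast cancer line, and their messenger RNA was sequenced at day 3. In the control group (replicates 1 to 3) the cells carried a lentivirus with a negative-control hairpin, and in the shtRF group (replicates 1 to 3) a lentivirus with a hairpin against tRF-1-Ser, a small RNA cut from the tail of a serine transfer RNA precursor. The labels do not say whether the 3 replicates of a group were separate transductions or dishes of a single population, so the spread between them may be technical. Both groups had been through lentiviral infection, and no uninfected cells were compared.

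The integrated stress response begins when a kinase that senses a shortage of amino acids, misfolded protein in the endoplasmic reticulum, viral RNA or lack of haem phosphorylates the translation factor eIF2. General protein synthesis then slows, while the ATF4 message is translated more, because ribosomes pass over short upstream reading frames in its leader. ATF4 pairs with other basic leucine zipper proteins and switches on genes for amino acid uptake and synthesis, redox balance and, when the stress lasts, cell death. In breast cancer cells the program is known for helping cells to endure poor supply of nutrients and oxygen.

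Control replicate 3 stood apart from the other controls in most of these genes and in some other genes of the pathway, and this bears on the comparisons that follow. In 9 of the 10 genes its level was lower than the mean of control replicates 1 and 2 by more than 0.5 on the scale of log2(CPM + 1), where CPM is the count per 1000000 counts, corrected by TMM. The ratio ran from 1.53-fold for ATF4 to 8.48-fold for CHAC1. PPP1R15A was the exception, at 1.09-fold. In the shtRF group no library was more than 0.5 away from the mean of the other 2 in any of the 10 genes. The log2 fold changes and mean levels of the 10 genes, and the counts of genes called in each list of the pathway, are therefore given with and without control replicate 3. The fit without it rests on 2 controls. For the 9 genes its SE is smaller, since the library that departed is left out, and this is no sign of a more precise estimate. The same applies to genes of the lists that were low in control replicate 3. Calls gained by leaving it out are therefore no added support.

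All 6 libraries held 63541413 to 78917459 counts, a 1.24-fold range. Control replicate 3 had the largest total, and its mitochondrial share of 6.71% lay below the 7.25% and 7.50% of the other controls, while the shtRF libraries ranged from 6.92% to 7.84%. Its correlation with the other controls over the tested genes (Pearson r of 0.9973 and 0.9975) was close to, and slightly below, the 0.9977 between those controls. Whether depth or the mitochondrial share has a part in the low values of control replicate 3 was not tested. The luminal breast markers FOXA1, GATA3, SPDEF, ERBB2, KRT8, KRT18 and EPCAM each had a mean over 1 CPM, although TFF3 was low, with 0.439 CPM in control and 2.17 CPM in shtRF. The summed level of the whole luminal list was 3596 to 3636 CPM in the controls and 4628 to 5026 CPM in shtRF. Markers of endothelium had at most 16 counts in any library. Among the 5 measured fibroblast markers only COL1A1 passed 1 CPM. The summed level of the fibroblast list was 29.8 to 35.6 CPM in the controls and 20.6 to 21.4 CPM in shtRF, nearly all from COL1A1. Among 6 leukocyte markers only CD68 did so, and other genes cover 85.8% of its exons. Of 5 markers of other lines or basal breast cells only TP63 did so, with 2.88 CPM in control and 1.98 CPM in shtRF. The part of these markers in the results was not tested.

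ATF4 and its partners bind a composite element that joins part of a C/EBP site to part of an ATF site. The promoter windows of RefSeq (build GRCh38.p14, from 250 bases before to 50 bases after each annotated start) were searched on both strands for TGATGNAA, of which TGATGCAA is the stricter form. The first form was found in 3 of the 10 genes (ASNS, CHAC1 and ATF3), against 4.46% of the 27305 genes in that table. The stricter form was found in CHAC1 alone of the 10, against 1.08% of all genes. A match is a description of letters in the window and does not show binding. The matched stretches of these 3 genes are printed to show the element in its surroundings, and those of HERPUD1 and CEBPG, chosen after their values were seen, to set 2 other genes of the pathway beside them. Capitals mark the match as it reads on the gene's own strand, and the flanks are 11 bases on each side. The stretches lie at chr7:97872458-97872487 (minus strand) for ASNS, chr15:40953251-40953280 (plus strand) for CHAC1, chr1:212565205-212565234 (plus strand) for ATF3, chr16:56931955-56931984 (plus strand) for HERPUD1 and chr19:33374060-33374089 (plus strand) for CEBPG.
ASNS: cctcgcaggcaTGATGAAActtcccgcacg
CHAC1: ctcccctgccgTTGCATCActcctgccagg
ATF3: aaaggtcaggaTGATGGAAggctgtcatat
HERPUD1: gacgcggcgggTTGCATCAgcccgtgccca
CEBPG: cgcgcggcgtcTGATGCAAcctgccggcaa

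The match began 68 bases before the start in ASNS, 209 bases before it in CHAC1, 191 in ATF3, 176 in HERPUD1 and 42 in CEBPG. In ASNS, ATF3 and CEBPG it read TGATGAAA, TGATGGAA and TGATGCAA on the strand of the gene, and in CHAC1 and HERPUD1 it lay on the opposite strand and so appears as TTGCATCA. By the exons of the count table, whose longest transcripts can start further upstream than those of RefSeq, the stretches of ASNS and CHAC1 lie in the first exon, that of CEBPG in an intron and those of ATF3 and HERPUD1 upstream of the gene. The windows of ATF4, DDIT3, TRIB3, STC2, SESN2, PPP1R15A and VLDLR did not contain these letters, which says nothing about elements further away. Among other genes of the pathway, the element was found in 7 of 11 aminoacyl-tRNA synthetase genes and 5 of 10 amino acid transporter genes whose windows were in the table, but in only 2 of 10 amino acid synthesis genes, 2 of 21 other stress effectors and 3 of 19 partners and related zipper factors. In the lists that are not ATF4 partners or targets it was found in 1 of 20 genes for eIF2 kinases and phosphatase, 1 of 24 endoplasmic reticulum genes, 1 of 14 p53 targets, 0 of 18 hypoxia-responsive genes and 0 of 11 immediate early genes.

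ATF4 (chr22:39519695-39522685, plus strand), the regulator that gives the program its name, had 408, 386 and 259 CPM in control replicates 1, 2 and 3, and 256, 231 and 228 CPM in shtRF replicates 1, 2 and 3. The groups did not overlap, but control replicate 3 lay only just above the highest shtRF library. The log2 fold change of shtRF over control was -0.56 ± 0.10 (SE of the edgeR fit, n = 3 per group) and -0.73 ± 0.06 without control replicate 3. Since ATF4 is governed mainly at translation, these values describe its message and not its protein, which was not measured.

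DDIT3 (chr12:57516588-57520517, minus strand) encodes CHOP, the zipper protein tied to cell death under prolonged stress. Its level was 30.4, 28.6 and 13.2 CPM in the controls, in the order of the replicates, and 20.4, 21.4 and 20.1 CPM in shtRF. The shtRF libraries lay between the high controls and control replicate 3, which was the lowest of all 6. The log2 fold change of -0.22 ± 0.17 (SE) was little more than its error, and it was -0.51 ± 0.07 without control replicate 3. Exons of MARS, a synthetase gene that is itself a target of ATF4, cover 28.0% of the exonic length of DDIT3. MARS lies on the opposite strand, and since the strand setting of the counting is not given in the sources used here, whether its reads enter the DDIT3 count is not known.

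ATF3 (chr1:212565334-212620777, plus strand), a stress-induced zipper protein that dampens or extends the response depending on its partner, was at 12.7, 11.3 and 5.20 CPM in the controls and at 3.47, 4.43 and 5.29 CPM in shtRF. Control replicate 3 lay inside the range of the shtRF libraries. With all libraries its log2 fold change was -1.14 ± 0.21 (SE) and -1.45 ± 0.13 without control replicate 3. ATF3 also had the widest spread of the 10 genes within shtRF, with a coefficient of variation (CV, the SD as a percentage of the mean) of 20.7%.

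TRIB3 (chr20:362835-397559, plus strand) encodes a pseudokinase that binds ATF4 and AKT and acts as a brake on the program. The controls had 33.5, 32.7 and 18.8 CPM and the shtRF libraries 19.0, 19.6 and 19.9 CPM. Thus control replicate 3 was level with, and slightly below, the shtRF group. Its log2 fold change was -0.54 ± 0.13 (SE), and -0.76 ± 0.07 without that library.

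CHAC1 (chr15:40952962-40956519, plus strand), an enzyme that breaks down glutathione, showed the widest split within a group. Its counts were 662, 723 and 93 in the controls and 120, 100 and 102 in shtRF, which is 10.2, 9.57 and 1.16 CPM against 1.71, 1.46 and 1.64 CPM. The first 2 controls were far above all other libraries, and control replicate 3 was the lowest of the 6. The log2 fold change was -2.11 ± 0.43 (SE), and without control replicate 3 it was -2.62 ± 0.13. The mean of control replicates 1 and 2 was 6.16-fold above the shtRF mean and 8.48-fold above control replicate 3.

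ASNS (chr7:97852118-97872542, minus strand), the enzyme that makes asparagine and a classic reporter of amino acid shortage, was at 22.7, 20.6 and 9.96 CPM in the controls and at 13.2, 12.1 and 11.4 CPM in shtRF. Again control replicate 3 was below every shtRF library. A log2 fold change of -0.54 ± 0.18 (SE) was estimated, and -0.83 ± 0.08 without it.

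STC2 (chr5:173314713-173329503, minus strand) encodes stanniocalcin 2, a secreted glycoprotein. Its level was 32.3, 27.8 and 9.18 CPM in the controls and 4.14, 4.60 and 4.16 CPM in shtRF. Here control replicate 3 was intermediate, 2.13-fold above the shtRF mean, and the groups did not overlap. The log2 fold change was -2.42 ± 0.27 (SE) and, without control replicate 3, -2.80 ± 0.09, the most negative of the 10 genes in either fit.

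SESN2 (chr1:28259527-28282491, plus strand) encodes sestrin 2, a leucine sensor that restrains the growth kinase complex mTORC1. The controls had 37.8, 36.3 and 16.1 CPM and the shtRF libraries 14.8, 15.8 and 17.5 CPM. Control replicate 3 sat within the shtRF range and within an SD of its mean. In the fit its log2 fold change was -0.90 ± 0.18 (SE), and -1.21 ± 0.07 without it.

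VLDLR (chr9:2621834-2660053, plus strand), a receptor for very low density lipoprotein that ATF4 raises under endoplasmic reticulum stress, was at 8.67, 7.81 and 4.47 CPM in the controls and at 2.36, 2.27 and 2.32 CPM in shtRF. As in STC2, control replicate 3 was intermediate, 1.93-fold above the shtRF mean. The fitted log2 fold change was -1.59 ± 0.18 (SE), and -1.83 ± 0.13 without control replicate 3. The antisense gene VLDLR-AS1 covers 7.90% of its exonic bases.

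PPP1R15A (chr19:48872392-48876057, plus strand) encodes GADD34, the inducible subunit that guides a phosphatase back to eIF2 and so ends the response. Unlike the other 9 genes it was higher in shtRF, with 77.1, 71.6 and 68.5 CPM in the controls and 116, 127 and 134 CPM in shtRF. All shtRF libraries were above all controls, and control replicate 3 was close to the other controls. Its log2 fold change was 0.80 ± 0.06 (SE), and 0.76 ± 0.06 without control replicate 3.

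**Figure D1:**
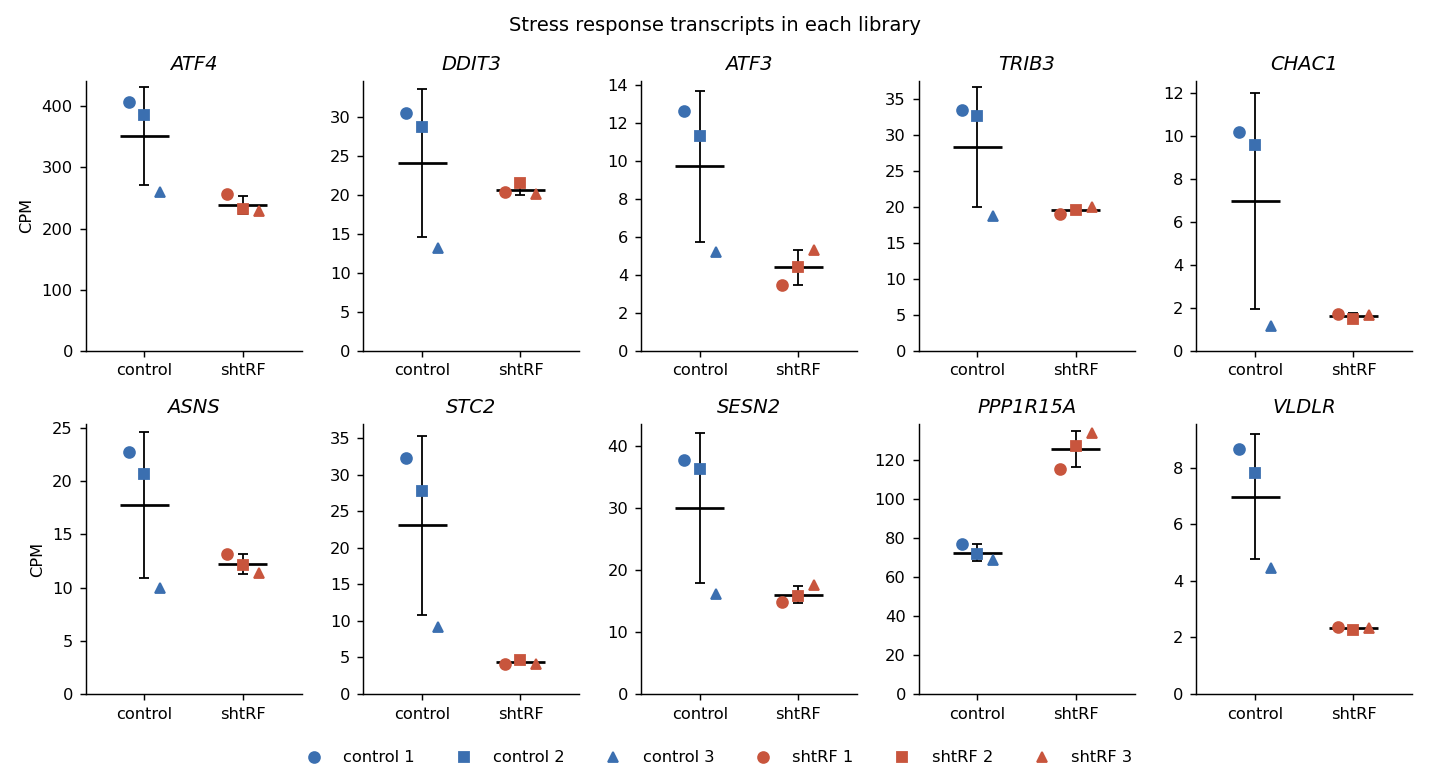
Level of each of the 10 transcripts in CPM (linear axis from 0) in control and shtRF libraries, with a symbol for each replicate, the mean as a horizontal line and the SD (n = 3) as a bar. The triangle of control 3 lies well below the other controls in 9 panels, from 1.53-fold lower for ATF4 to 8.48-fold lower for CHAC1, and PPP1R15A is the panel in which all shtRF libraries are higher.

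Over the 10 genes, the means were lower in shtRF for 9 and higher for 1. The groups did not overlap for 4 of them, which were ATF4, STC2 and VLDLR on the lower side and PPP1R15A on the higher. Among all 19628 genes tested, 23.8% had all shtRF libraries below all controls and 24.9% had them all above, so 3 and 1 of 10 are shares near this background. Without control replicate 3 no group overlapped for any of the 10, with 9 lower and 1 higher, where the shares over all genes were 28.8% and 29.0%. As the genes were picked with this contrast known, nothing is read from these counts. The median log2 fold change over the 10 genes was -0.73, and -1.02 without control replicate 3, where the medians over all tested genes were -0.0025 and -0.0037.

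Within groups the spread was uneven. The CV over the 3 controls had a median of 38.9% for the 10 genes, from 6.06% for PPP1R15A to 72.3% for CHAC1. Between control replicates 1 and 2 alone the CV was 1.71% to 10.5%, and in shtRF it was 1.98% to 20.7%, with a median of 6.93%. For the 10952 genes with a mean of at least 5 CPM, the median CV was 5.43% in control and 4.77% in shtRF, and the 95th percentile was 14.4% and 12.2%. By that measure 9 of the 10 genes exceeded the 95th percentile in control and 1, ATF3, did so in shtRF. CHAC1 and VLDLR are themselves under 5 CPM, where sampling noise is larger.

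**Figure D2:**
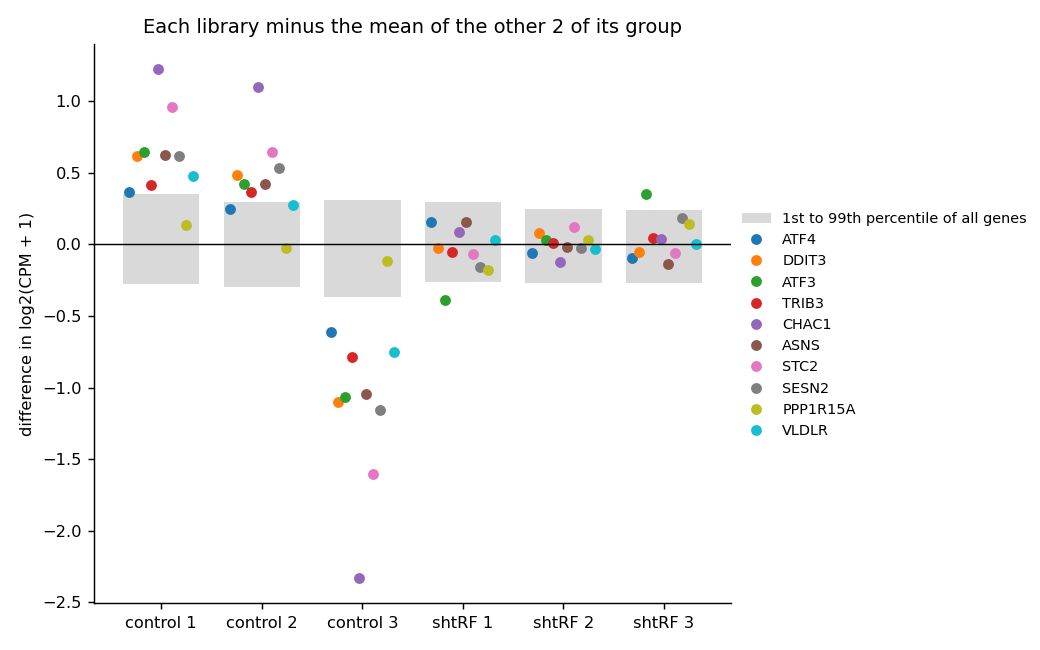
Difference in log2(CPM + 1) between each library and the mean of the other 2 libraries of its group, with a coloured point per gene and a grey band from the 1st to the 99th percentile of the 10952 genes of at least 5 CPM. In control 3 the points of 9 genes lie below the band, down to -2.33 for CHAC1, whereas in the shtRF libraries all points lie between -0.39 and 0.35.

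A departure of this kind was rare among other genes. Of the 10952 genes of at least 5 CPM, 39 (0.356%) were more than 0.5 lower in control replicate 3 than in the mean of control replicates 1 and 2, and 0 were more than 0.5 higher. The same count for other libraries, each against the other 2 of its group, was 1 lower and 23 higher for control replicate 1, 3 and 10 for control replicate 2, 1 and 8 for shtRF replicate 1, 3 and 1 for shtRF replicate 2 and 1 and 1 for shtRF replicate 3. The values of the 3 controls are not independent of each other in this measure, since each serves in the mean set against the others.

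Of the 39 genes, 7 were among the 8 of the 10 genes that reach 5 CPM, 14 were in the 5 lists of ATF4 partners and targets described below, and 18 were in neither. Those 5 lists hold 71 genes of at least 5 CPM, and the other 5 lists hold 90, of which 0 were among the 39. The 14, named after their values were seen, were the zipper factors CEBPB and JDP2, the enzymes GPT2, MTHFD2 and PSPH, the transporters SLC7A11, SLC7A5, SLC7A1 and SLC3A2, the synthetase gene CARS, and DDIT4, ADM2, HERPUD1 and NUPR1. SLC7A11, the cystine importer, stood at 28.8, 23.3 and 7.92 CPM in the controls and at 13.98, 13.2 and 13.97 CPM in shtRF, so control replicate 3 was below the shtRF group, as it was for CHAC1. GPT2, an alanine transaminase, stood at 159, 128 and 70.1 CPM in the controls and at 60.7, 63.5 and 59.2 CPM in shtRF. The gene with the most negative value among the 39, SLC7A11-AS1, is the antisense partner of SLC7A11 and had 10.9, 7.85 and 2.13 CPM in the controls.

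When the shtRF mean and control replicate 3 were each set against control replicates 1 and 2, the genes differed in which of them was the lower. These differences share the same 2 controls, so they are given side by side and not compared by a test. On the scale of log2(CPM + 1), SESN2 had -1.16 in both, and TRIB3 had -0.73 in shtRF and -0.79 in control replicate 3. ATF4 had -0.73 and -0.61, and ATF3 had -1.28 and -1.07. For DDIT3, ASNS and CHAC1 control replicate 3 was the lower, with -1.10 against -0.50, -1.05 against -0.78 and -2.33 against -2.06. For STC2 and VLDLR the shtRF mean was the lower, with -2.55 against -1.60 and -1.48 against -0.75. PPP1R15A had 0.75 in shtRF and -0.12 in control replicate 3.

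**Figure D3:**
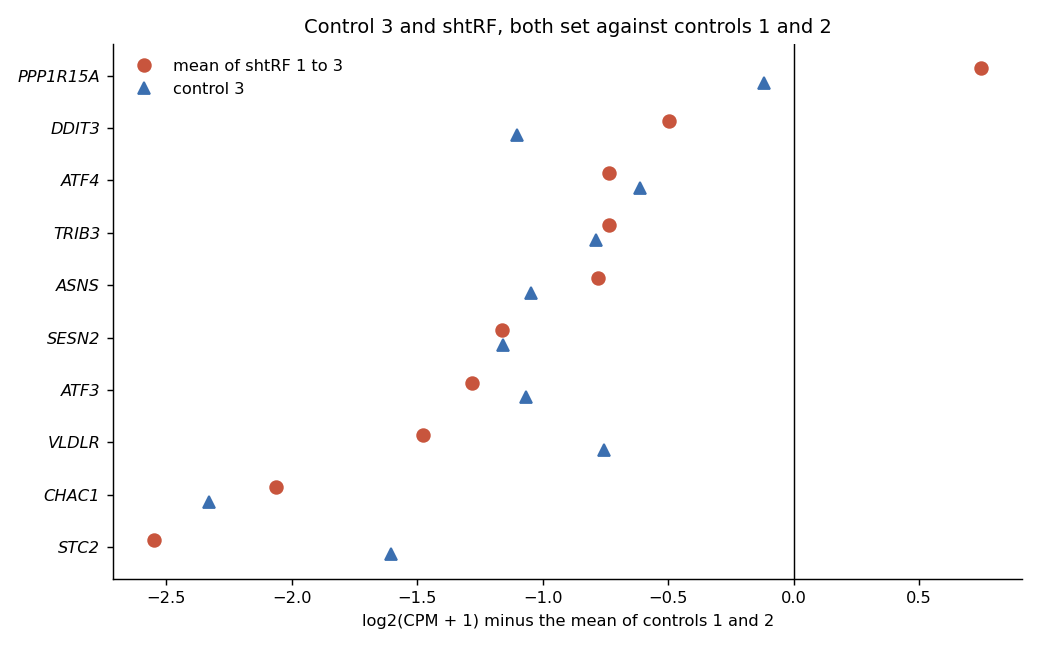
Mean of the 3 shtRF libraries (circles) and control 3 (triangles), each as the difference in log2(CPM + 1) from the mean of controls 1 and 2, which both sets of points share. Circle and triangle lie at -1.16 for SESN2, the circles lie further left for STC2 and VLDLR, and PPP1R15A alone lies to the right, at 0.75 in shtRF.

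Levels of different genes were compared per kilobase of exon, as RPKM (counts per kilobase, scaled to the same library total). In control the order of the means was ATF4 at 142 ± 33.0 RPKM (SD, n = 3), PPP1R15A at 23.8 ± 1.49, DDIT3 at 19.4 ± 7.69, SESN2 at 8.87 ± 3.61, TRIB3 at 8.41 ± 2.49, ASNS at 4.07 ± 1.58, STC2 at 3.84 ± 2.05, CHAC1 at 3.46 ± 2.50, ATF3 at 2.46 ± 1.01 and VLDLR at 0.762 ± 0.244. Within each control library, PPP1R15A was above DDIT3 (25.4 against 24.5, 23.7 against 23.2 and 22.4 against 10.5 RPKM). ASNS and STC2 were likewise above ATF3 in each. SESN2 was above TRIB3 in control replicates 1 and 2 but below it in control replicate 3 (4.70 against 5.54 RPKM). Neighbours in the row from ASNS to ATF3 also changed order between libraries, so the order of these neighbours, and of SESN2 and TRIB3, is not settled. The ATF4 message was thus by far the most abundant, and VLDLR the least. Without control replicate 3 the control means were 161 RPKM for ATF4, 24.6 for PPP1R15A, 23.8 for DDIT3, 10.95 for SESN2, 9.85 for TRIB3, 5.01 for STC2, 4.97 for ASNS, 4.90 for CHAC1, 3.03 for ATF3 and 0.901 for VLDLR. STC2 then came before ASNS, but STC2, ASNS and CHAC1 were within an SD of each other (0.502, 0.311 and 0.186 RPKM over the 2 libraries).

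In shtRF the order was ATF4 at 93.2 ± 8.14 RPKM, PPP1R15A at 39.8 ± 2.35, DDIT3 at 16.003 ± 0.446, TRIB3 at 5.58 ± 0.0905, SESN2 at 4.56 ± 0.348, ASNS at 2.69 ± 0.257, ATF3 at 1.07 ± 0.206, CHAC1 at 0.765 ± 0.0794, STC2 at 0.688 ± 0.0301 and VLDLR at 0.244 ± 0.0107. CHAC1 and STC2 were within an SD of each other, while the other neighbours were further apart than their SD. STC2 thus stood above ATF3 in the control means and below it in shtRF.

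**Figure D4:**
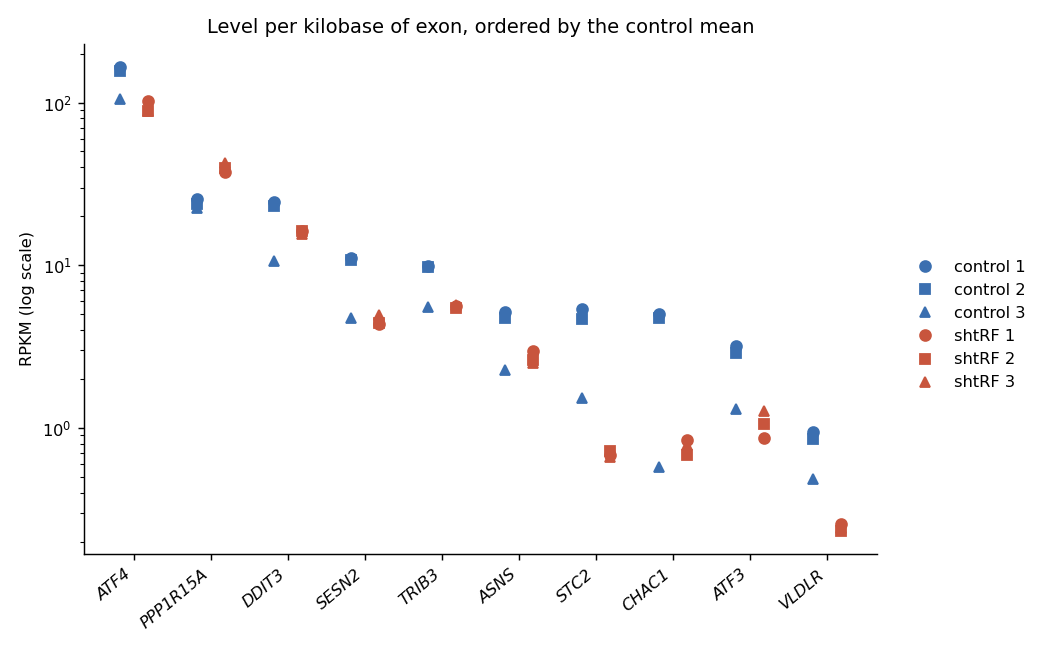
RPKM of the 10 transcripts in each library on a log axis, ordered by the control mean, with a symbol per replicate. ATF4 is highest in every library (88.4 to 165 RPKM) and VLDLR the lowest (0.234 to 0.945 RPKM), and the triangle of control 3 sits apart from the other control symbols in 9 of the 10 columns.

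Which genes followed ATF4 from library to library was asked of all genes of at least 5 CPM, by the Pearson correlation of log2(CPM + 1) over the 6 libraries after the mean of each group had been taken off. The 5 highest were ZFP36, an RNA-decay factor, with r = 0.9996, DNAJB9, a chaperone of the endoplasmic reticulum (0.999), FZR1, an activator of the anaphase-promoting complex (0.999), TMEM131 (0.998) and CNNM4 (0.997). None of these 5 was among the 39 genes that were more than 0.5 lower in control replicate 3. Of the genes picked by name, ASNS was 11th with r = 0.994, DDIT3 83rd (0.962), STC2 97th (0.959), TRIB3 148th (0.946), SESN2 283rd (0.916), ATF3 802nd (0.814) and PPP1R15A 3527th (0.323). The deviation of ATF4 was -0.41 in control replicate 3 against 0.24 and 0.16 in the other controls and -0.06 to 0.10 in shtRF, so these values rest on control replicate 3, and they measure likeness of shape and not of size.

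The rest of the pathway was examined in 10 lists of 198 genes, of which 189 were tested. Tests were made with edgeR's quasi-likelihood test, and p-values were adjusted over all 19628 genes. Over all genes 20.6% were higher and 18.9% were lower in shtRF at an adjusted p under 0.05, and without control replicate 3 it was 19.6% and 17.9% of 20171. Over the 10 lists together, 45 genes rose and 66 fell, and 49 and 78 without that library.

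Upstream of ATF4, a list covered eIF2 kinases, eIF2, its exchange factor and phosphatase, and related factors such as EIF2A. Of its 23 genes 4 rose and 10 fell (median log2 fold change -0.10), and 5 and 10 without control replicate 3 (median -0.11). EIF2AK2, which encodes the kinase PKR that senses double-stranded RNA, fell from 184 ± 4.41 to 105 ± 6.52 CPM (SD, n = 3), which is -0.81 on the log2 scale (edgeR, adjusted p = 1.27e-10). EIF2AK3, which encodes the endoplasmic reticulum kinase PERK, rose by 0.35 (adjusted p = 1.04e-04), with 15.1% of its exonic bases shared. The threshold was not passed by EIF2AK1 (-0.07, adjusted p = 0.283) or EIF2AK4, the amino acid sensor GCN2 (-0.09, adjusted p = 0.22). EIF2S2, a subunit of eIF2, fell by 0.50, and EIF2B4, a subunit of its exchange factor, rose by 0.31. On the phosphatase side, the constitutive counterpart of GADD34, PPP1R15B, was -0.07 (adjusted p = 0.354), the catalytic subunit PPP1CC fell by 0.71, and DNAJC3, an inhibitor of the kinases, rose by 0.52. In this list 0 of 23 genes were more than 0.5 lower in control replicate 3.

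The list of ATF4 partners and related zipper factors had 7 genes that rose and 7 that fell out of 22, with a median of -0.0046. The counts were the same without control replicate 3 (median 0.0201), and 4 fell without control replicate 1, control replicate 2 or shtRF replicate 3. CEBPB stood at 19.7, 23.0 and 12.1 CPM in the controls and at 13.7, 13.8 and 13.7 CPM in shtRF. It fell by 0.41 (adjusted p = 0.0226), and by 0.64 without control replicate 3. CEBPG, a partner that ATF4 itself induces, fell by 0.25 (adjusted p = 0.0194). The call of CEBPB was kept without control replicate 3 and lost without any other library, with an adjusted p of up to 0.233. CEBPB was itself among the genes low in control replicate 3, so the fit without that library says little about its call. That of CEBPG was lost without control replicate 1, control replicate 2 or shtRF replicate 3, at 0.0608 to 0.164. CEBPA fell by 0.42, but 43.4% of its exonic bases are shared. CREB1 fell by 0.33 and ATF2 by 0.27, whereas JUN rose by 0.54 (adjusted p = 8.47e-08), MAFK by 0.54 and NFE2L1 by 0.43. MAFK shares 18.1% of its exonic bases.

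Of 14 amino acid synthesis genes 10 fell and 0 rose, with a median of -0.42 (-0.51 with 11 lower without control replicate 3). ASS1, which makes argininosuccinate, fell from 20.5 ± 2.53 to 1.96 ± 0.261 CPM (SD, n = 3), which is -3.39 on the log2 scale (edgeR, adjusted p = 2.18e-15). PHGDH, the first enzyme of serine synthesis, fell from 249 ± 42.8 to 80.4 ± 3.54 CPM, which is -1.63 on that scale. GPT2 fell by 0.96 (adjusted p = 4.72e-05), and had -1.23 without control replicate 3. In ASS1 control replicate 3 stood at 17.7 CPM, much nearer to the mean of the other controls (21.9 CPM) than to shtRF. In PHGDH it stood at 200.3 CPM, between the 274 CPM of the other controls and the 80.4 CPM of shtRF. Its difference from the other controls in PHGDH was -0.45 on log2(CPM + 1), beyond the 1st percentile of -0.37 over genes of at least 5 CPM. Without control replicate 3 the log2 fold changes of ASS1 and PHGDH were -3.49 and -1.77.

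Among the amino acid transporters the outcome depended on control replicate 3. With all libraries 3 of 10 fell and 2 rose, and without control replicate 3 it was 7 of 11 that fell and 2 that rose, and the median went from -0.15 to -0.33. In this list 4 genes were more than 0.5 lower in control replicate 3. Leaving it out raises their control mean and narrows their spread, so the gain in calls is no added support. SLC7A5, the large neutral amino acid carrier LAT1, fell by 1.69 (adjusted p = 5.78e-08), and SLC7A1, a cationic amino acid carrier, by 1.09 (adjusted p = 6.03e-07). Without control replicate 3 these were -1.95 and -1.31. SLC38A1, a glutamine carrier, rose by 0.25. SLC36A4 rose by 0.30 (edgeR, adjusted p = 0.0051), a call that was lost under limma-trend on log2(RPKM + 1) and log2(RPKM + 0.1), with an adjusted p of up to 0.112. SLC7A11, named after its values were seen, was -0.54 (edgeR, adjusted p = 0.0871) and -0.92 without control replicate 3. Since it was named for its low value in that library, no p-value is given for the fit without it.

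Of 13 genes for aminoacyl-tRNA synthetases and tRNA export, which ATF4 raises to keep transfer RNAs charged, 8 fell and 1 rose (median -0.27), and 10 and 1 without control replicate 3 (median -0.33). YARS fell from 138 ± 20.1 to 91.5 ± 3.82 CPM (SD, n = 3), or by 0.59 (by 0.71 without control replicate 3), LARS by 0.46 and IARS by 0.43. SARS, the seryl-tRNA synthetase gene, rose from 259 ± 14.7 to 337 ± 10.0 CPM, or by 0.38 (adjusted p = 1.02e-05). In all 13 genes control replicate 3 was the lowest control, although only CARS was more than 0.5 lower. In the other ATF4 lists, among genes of at least 5 CPM, it was lowest in 9 of 12 synthesis genes and 8 of 10 transporters. It was lowest in 13 of 19 other effectors and 8 of 17 partners. Outside these lists it was 8 of 23 eIF2 genes, 9 of 26 endoplasmic reticulum, 9 of 19 hypoxia, 3 of 11 p53 and 5 of 11 immediate early genes. The share over all genes was not counted.

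Of 26 other effectors 8 fell and 3 rose (median -0.14). It was 12 and 3 without control replicate 3 (median -0.23), and 5 fell without shtRF replicate 3. Here too 4 genes of the list were more than 0.5 lower in control replicate 3, with the same limit on the added calls. DDIT4, an inhibitor of mTORC1 that hypoxia also induces, fell from 395 ± 128 to 56.2 ± 2.32 CPM (SD, n = 3), which is -2.81 on the log2 scale (edgeR, adjusted p = 1.46e-12), and -3.05 without control replicate 3. The noncoding gene RP11-442H21.2 had nearly the same profile, and 41.2% of the exonic length of DDIT4 is shared. VEGFA, the vascular growth factor, fell by 1.14 and CDSN by 1.09, the latter with 93.8% of its exonic bases shared. GDF15, a stress cytokine, rose from 1.16 ± 0.163 to 3.22 ± 0.543 CPM, or by 1.46 (adjusted p = 1.33e-06). TXNIP rose by 0.36 and SQSTM1, with 22.0% shared bases, by 0.32.

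In the 4 lists outside the ATF4 branch, 0 of 67 genes of at least 5 CPM were more than 0.5 lower in control replicate 3. Of 28 endoplasmic reticulum chaperones and sensors 11 rose and 3 fell (median 0.12), and 13 and 4 without control replicate 3 (median 0.16). HSP90B1 rose from 2485 ± 244 to 3430.1 ± 167 CPM (SD, n = 3), or by 0.46, SEL1L by 0.57, CRELD2 by 0.39 and XBP1, the sensor factor spliced by IRE1, by 0.31. The call of XBP1 was lost under both limma-trend fits (adjusted p of up to 0.0688). HSPA5, the main chaperone BiP, was 0.10 (adjusted p = 0.203), and 0.18 without control replicate 3, when it passed (adjusted p = 0.0156). SEC61B fell by 0.60, CANX by 0.30 and PDIA6, with 25.2% shared bases, by 0.34.

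Of 22 hypoxia-responsive genes 12 fell and 6 rose (median -0.36), with 11 and 6 without control replicate 3. NDRG1 fell from 51.0 ± 7.92 to 3.15 ± 1.11 CPM (SD, n = 3), which is -4.03 on the log2 scale. STC1, the paralogue of STC2, fell by 2.05, and LDHA fell by 1.13. In STC1 control replicate 3 stood at 23.6 CPM beside a mean of 24.1 in the other controls, unlike in STC2. MXI1 rose by 0.80, P4HA2 by 0.48 and SLC2A1 by 0.46. Of 15 p53 targets 7 rose and 1 fell (median 0.26), and 8 and 2 without control replicate 3, with ZMAT3 higher by 1.01 and RRM2B by 0.54. CDKN1A rose by 0.46 (adjusted p = 0.0247), which did not pass without control replicate 3 (adjusted p = 0.146), without shtRF replicate 2 (0.058) or without shtRF replicate 3 (0.0812). Of 16 immediate early genes 4 rose and 4 fell (median 0.17), with the same counts without control replicate 3 (median 0.11). KLF4 rose by 1.38, SRF by 0.50 and IER5 by 0.37, whereas EGR1 fell by 1.71, DUSP5 by 0.76 and MCL1 by 0.36.

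**Figure D5:**
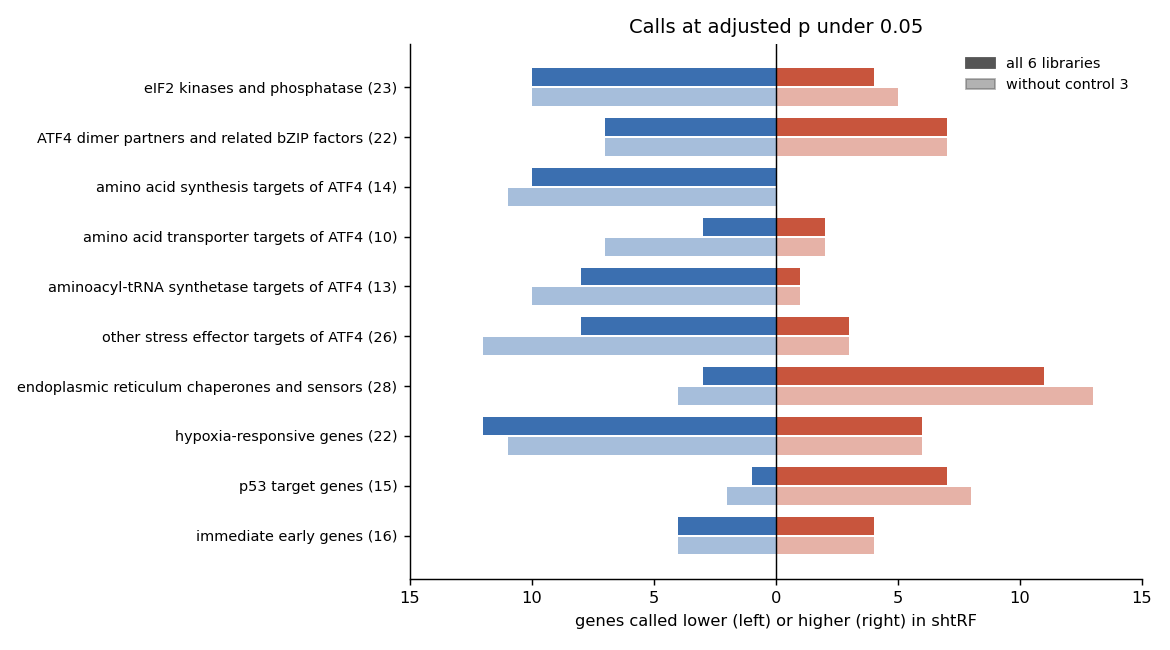
Number of genes in each list that were lower (bars to the left) or higher (bars to the right) in shtRF at an adjusted p under 0.05, with all 6 libraries (dark) and without control 3 (light), and the number of genes tested in brackets. The number of lower genes rises by 4 in 2 lists, from 3 to 7 for the amino acid transporters and from 8 to 12 for the other effectors, and all 10 calls for amino acid synthesis are on the lower side. The added calls come from leaving out a library that was low in some genes of these 2 lists.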

How the data were processed

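Stranded mRNA libraries of the 6 samples were read in pairs on a NovaSeq instrument. The authors deposited raw counts per gene with exon coordinates on GRCh38. The submitters' processing notes name Trimmomatic 0.36, featureCounts of Subread 1.5.1 and edgeR 3.12.1, with no role or order. The aligner and the strand setting of the counting are not given in the sources used here. The authors also deposited RPKM values, and the copy used here holds 4997 complete genes. In the 4991 matched by symbol, 100% of values equalled the count divided by exonic length and library total (relative tolerance of 0.000001), so RPKM was recomputed from the counts for all genes. Of counts of 1 to 4, 74.2% to 77.1% were even, against 49.7% to 50.7% of counts of 1000 and more, as if mates had been counted separately, and fits on halved counts were therefore added as an alternative. The totals of 63541413 to 78917459 counts give a CHAC1 value that rests on 93 to 723 counts, whereas ATF4 rests on 14134 or more.

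The counts were analysed in R 4.3.3 with edgeR 4.0.16 (filterByExpr by group with a minimum count of 10, TMM, quasi-likelihood test, two-sided, group as the only term), and 19628 genes were adjusted together by the Benjamini-Hochberg method at 0.05. CPM includes the TMM factors (0.961 to 1.03). Errors are SD over libraries or SE of the fit. The spread was taken on log2(CPM + 1) for genes of at least 5 CPM. Exons shared with another gene were counted irrespective of strand. On simulated counts of shtRF against control, edgeR recovered 191 of 200 changed genes, with 17 false calls among 19325 tested. The planted log2 fold changes were at least 1 in size and sat in well counted genes, and no library departed from its group. That recovery does not carry over to smaller changes or to these data, where far more genes were called. Alternatives were RLE and upper quartile scaling, other filters, DESeq2 1.42.0, limma-trend (limma 3.58.1) on log2(RPKM + 1) and log2(RPKM + 0.1), halved counts, a replicate block, the limit on shared exons, and leaving out each library.

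The 10 genes, the lists and the rules were chosen with earlier results of these data known. The lists (eIF2 kinases and phosphatase, ATF4 partners, amino acid synthesis, amino acid transporters, aminoacyl-tRNA synthetases, other effectors, endoplasmic reticulum, hypoxia, p53 targets and immediate early genes) were written from general knowledge without the 10 genes, and 14 of their 198 entries were matched by an older symbol. From each list the text names the 3 called genes with the highest and the 3 with the lowest log2 fold change that had at least 2 CPM and groups apart, together with the eIF2 kinases, PPP1R15B, CEBPB, CEBPG, XBP1 and HSPA5. No 2 libraries of a group had counts that agreed within sampling noise. The chi-square per degree of freedom was 6.19 to 19.1, a value that separate counting of mates can raise. It was 10.2 between control replicates 1 and 2, and 16.1 and 19.1 between these and control replicate 3. No library was therefore treated as a repeat deposit, which does not show that they are separate cultures. Some genes of the marker list and of the table are not reported here.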

Additional observations from a re-analysis of the deposited data

How the results depend on the processing

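Directions of the 10 genes held in all 15 alternatives. Of 150 refitted log2 fold changes, 147 moved by less than an SD, taken within groups on log2(CPM + 1) and pooled over both groups. Control replicate 3 widens this SD in most of the 10 genes, to 0.95 for CHAC1. A fit that leaves out 1 library can hardly move by more than it, so for those fits this count says little. The other 3 moved on log2(RPKM + 1), to -1.11 for CHAC1, -1.41 for STC2 and -0.49 for VLDLR, a scale whose pseudocount compresses low genes. When each library was left out in turn, the log2 fold change ranged from -0.73 to -0.44 for ATF4, -0.51 to -0.02 for DDIT3, -1.45 to -0.92 for ATF3, -0.76 to -0.41 for TRIB3, -2.62 to -1.74 for CHAC1, -0.83 to -0.33 for ASNS, -2.80 to -2.11 for STC2, -1.21 to -0.71 for SESN2, 0.75 to 0.85 for PPP1R15A and -1.83 to -1.41 for VLDLR. Genes more than 0.5 lower in control replicate 3 numbered 8 of the 10 on log2(RPKM + 1), and 6 were more than 1 lower on log2(CPM + 1), a limit chosen after seeing the data. With TGATGCAA in place of TGATGNAA, 1 of the 10 promoters held the motif.

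Of 353 recounted numbers of genes, 335 differed by at most 1.5 times from those given above. The number of transporters that fell was 5 with no filter beyond 1 count and 2 to 7 in the fits without a library, and 1 rose under both limma-trend fits. For ATF4 partners it was 4 lower under both limma-trend fits and 4 lower and 3 higher with under 10% shared exonic bases, and 4 to 7 lower without a library (4 without control replicate 1, control replicate 2 or shtRF replicate 3). Other effectors had 5 to 12 lower without a library (5 without shtRF replicate 3). p53 targets had 4 higher on log2(RPKM + 1), 2 lower under both limma-trend fits and upper quartile scaling, and 1 to 2 lower without a library. The cause of these shifts was not tested. Among named genes, 830 of 855 fold changes kept direction and side of the threshold, 22 lost and 3 gained a call, and 0 reversed. The losses were in CEBPB (adjusted p of up to 0.253 over the alternatives), CEBPG (up to 0.164), CDKN1A (0.0107 to 0.146), XBP1 (5.30e-09 to 0.0688) and SLC36A4 (0.0049 to 0.112). For CEBPB and CEBPG the lowest value came from the fit without control replicate 3. Both genes were low in that library, so this value is not given.

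Libraries with the same replicate number hardly deviated together over the tested genes (r of 0.06, 0.02 and 0.02). Such a low correlation does not decide whether they were handled as pairs, and the labels do not say. In the fit with a replicate block 4123 genes were higher and 3776 lower, and the log2 fold changes were -0.53 for ATF4 and -1.82 for CHAC1. No outlier test was run on the groups of 3 libraries. The values near or under 2 CPM in shtRF rested on 100 to 120 counts for CHAC1 and 144 to 166 counts for VLDLR.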

Other observations

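Of the 39 genes of at least 5 CPM that were more than 0.5 lower in control replicate 3 than in the other controls on log2(CPM + 1), 18 were neither among the 10 genes nor in a list. They were named only after their values had been seen. GRPEL2, a helper of the mitochondrial HSP70 chaperone, had 21.4, 21.7 and 12.1 CPM in the controls and 8.12, 7.31 and 7.77 CPM in shtRF, a profile in which control replicate 3 was intermediate. TSC22D3, a glucocorticoid-induced leucine zipper protein, had 103, 96.5 and 66.2 CPM in the controls and 55.0, 57.8 and 63.5 CPM in shtRF. BMF, a BH3-only death protein, had 6.96, 6.51 and 4.20 CPM in the controls and 5.18, 4.63 and 5.40 CPM in shtRF, where control replicate 3 was the lowest of all. NUPR1, a stress-induced chromatin protein from the list of effectors, had 456, 455 and 316 CPM in the controls and 379, 419 and 388 CPM in shtRF. FUT3, a fucosyltransferase, and FA2H, a fatty acid hydroxylase, were low in control replicate 3 too (6.89 and 4.02 CPM, beside 9.41 to 11.9 and 5.86 to 6.47 CPM in the other controls), with shtRF at 9.65 to 10.95 and 5.49 to 6.69 CPM.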
